A study of Homo sapiens with 4 samples.

Results

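The adrenergic core transcription factors of neuroblastoma were followed here as 8 named genes, PHOX2A, HAND2, GATA2, GATA3, ISL1, TBX2, TFAP2B and MYCN, found by symbol among the 58243 gene rows of the deposited tables. Each symbol matched 1 row, and all 8 passed the filter on low counts. The RNA came from SH-SY5Y, an established human neuroblastoma line without MYCN amplification. The control group was 2 libraries of cells given no agent (control a and control b). The treated group, which the submitters call the oxidized state, was 2 libraries (SNP a and SNP b) from an 8 h exposure to SNP, which is sodium nitroprusside, a nitric oxide donor. Several doses are mentioned in the labels and the sequenced one is not named. The treatment text speaks of cells differentiated with retinoic acid while the growth text names no retinoic acid. All 4 libraries share the line and the serum-containing medium, and the labels describe wells of a single experiment, so the p-values below measure the spread between these libraries, which may be technical. The labels describe the treated RNA as oxidized but describe no step that selects oxidized RNA.

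Adrenergic neuroblastoma cells resemble the sympathetic lineage from which the tumour arises, and a small set of transcription factors keeps that identity. These factors bind together at large enhancers, many of which lie at their own genes, so each factor helps to sustain the others. PHOX2A, HAND2, GATA2 and GATA3 are sympathetic lineage factors that act on noradrenergic genes such as DBH. A second tumour cell state, called mesenchymal, uses other factors, including PRRX1, SNAI2 and the AP-1 subunits.

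The regulatory sequence just upstream of 3 members is printed because their calls held under every alternative tried. The windows are from RefSeq (GRCh38.p14), read 5′ to 3′ on the gene's own strand, and they end at the base before the RefSeq start, or for TFAP2B at the base before the first exon base annotated in GENCODE release 29. Capitals mark matches to any of 6 short motifs, searched on both strands. The motifs were AGATAA (bound by GATA factors), TAATTA (a homeodomain core), AGGTGT (T-box), CACGTG (the MYC E-box), CATCTG (an E-box of HAND factors) and GCCNNNGGC (AP-2).
HAND2, chr4:173530230-173530479, minus strand: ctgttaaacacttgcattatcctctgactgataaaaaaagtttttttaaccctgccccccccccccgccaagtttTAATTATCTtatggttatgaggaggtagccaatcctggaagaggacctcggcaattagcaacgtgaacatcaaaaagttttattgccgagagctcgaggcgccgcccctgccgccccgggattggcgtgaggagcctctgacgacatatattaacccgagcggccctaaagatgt
PHOX2A, chr11:72244177-72244426, minus strand: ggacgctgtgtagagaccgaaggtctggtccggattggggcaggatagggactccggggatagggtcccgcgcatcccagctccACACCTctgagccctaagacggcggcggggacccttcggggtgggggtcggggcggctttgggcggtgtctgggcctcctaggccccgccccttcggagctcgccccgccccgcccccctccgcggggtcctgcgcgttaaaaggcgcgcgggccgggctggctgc
TFAP2B, chr6:50818621-50818722, plus strand: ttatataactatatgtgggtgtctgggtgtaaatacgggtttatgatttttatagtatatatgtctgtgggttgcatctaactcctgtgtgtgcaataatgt

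The HAND2 window holds AGATAA from base -172 to -167, counted back from the start, and TAATTA from -175 to -170, so these matches overlap. The PHOX2A window holds AGGTGT from -166 to -161. No match was found in the TFAP2B window, which is 102 bases long, nor in the 148 bases left out after it. Over 35116 RefSeq windows of 250 bases, AGATAA was present in 9.17%, TAATTA in 4.35%, AGGTGT in 9.57%, CACGTG in 6.34%, CATCTG in 12.2% and GCCNNNGGC in 19.8%. A match is a string of letters and not a measured binding site. The RefSeq table held 13 windows for 7 of the members, some with several starts, and GCCNNNGGC was present in 5 of those windows, all at GATA2 and GATA3. TBX2 had no entry.

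Counts assigned to genes numbered 5613144 to 6538701 in the control libraries and 7648309 to 8056550 in the SNP libraries. The SNP libraries were thus the deeper ones. The deposited RPKM imply far larger totals, 48.7 to 62.0 M reads, and why fewer were assigned was not tested. A count of 0 in a library allowed at most 0.372 to 0.534 CPM (counts scaled to a fixed library size of 1e+06), which covers counting error only. Of the defining adrenergic markers, PHOX2A, HAND2, GATA3, DBH, CHGA and STMN2 were counted in every library, and TH, the first enzyme of catecholamine synthesis, was at 0 in all 4. Among 7 Schwann lineage markers 4 were at 0 in all libraries, including SOX10, and the 7 summed to 1.64 to 3.11 CPM. Of 3 leukocyte markers, PTPRC and CD3E were at 0 and CD68 had 5 to 10 counts per library. The 7 fibroblast markers summed to 153 and 138 CPM in control a and b and to 146 and 137 CPM in SNP a and b. Among them the collagen gene COL3A1 rose (log2 fold change 0.68) and COL1A2 (-1.67, on 7 to 32 counts) and PDGFRB (-0.91) fell by edgeR, and their part in the results below was not tested. In these bulk RNA samples, fewer cells of a type and less RNA per cell cannot be told apart.

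Across the 8 factors, 5 differed between the groups by edgeR's quasi-likelihood test at a Benjamini-Hochberg adjusted p under 0.05. HAND2 rose, and PHOX2A, TFAP2B, GATA3 and GATA2 fell. ISL1, TBX2 and MYCN did not pass. The treatment moved many genes, which sets the background for this count. Of 14759 genes tested 26.2% were called, 13.6% higher and 12.6% lower with SNP. Where the mean level reached 100 CPM, which all the factors but MYCN do, 42.1% of 2629 genes were called. Of all calls 51.9% were higher, or 63.1% when the libraries were scaled by the read totals implied by the deposited RPKM. The CPM of the groups did not overlap for 7 of the 8 factors, while 64.0% of all genes tested had groups that did not overlap. Summed over the 8 genes, the factors made up 0.254% and 0.248% of all counts in control a and b and 0.200% and 0.222% in SNP a and b.

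**Figure D1:**
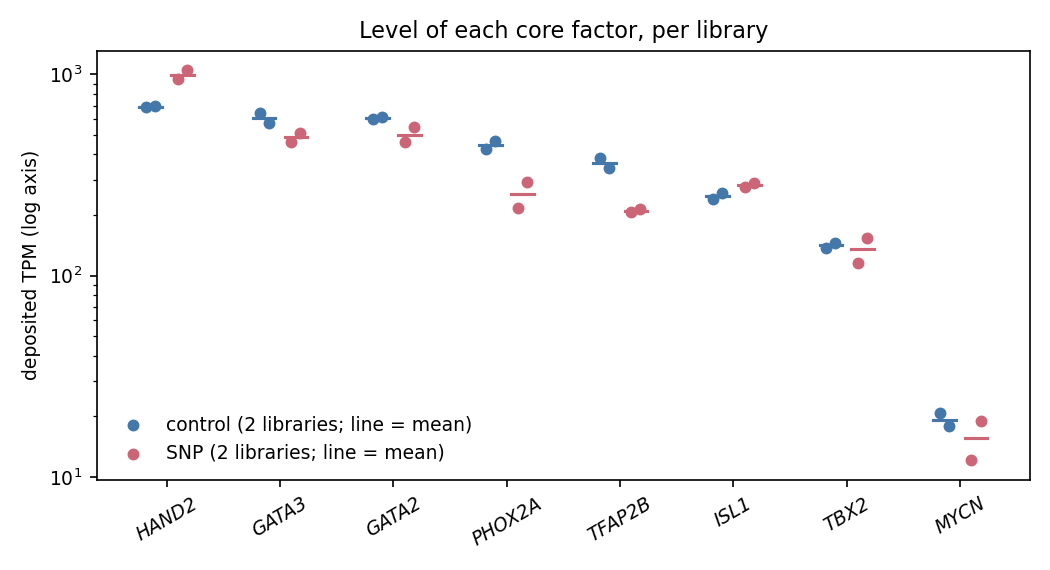
Deposited TPM of each factor on a log axis, 1 point per library and a line at the mean of each group of 2. HAND2 lies at 687 to 695 TPM in control and 947 to 1049 TPM in SNP libraries, while both SNP points of PHOX2A and TFAP2B lie under both control points.

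HAND2, a basic helix-loop-helix factor needed for noradrenergic differentiation, was the member with the highest level per length (deposited TPM) in both groups and the 1 that rose. In CPM, which is not per length, GATA2 was above it in control. The gene is at chr4:173524969-173530229 on the minus strand, with 4 exons after merging of its annotated transcripts. It was counted 3445 and 2970 times in control a and b and 5423 and 5572 times in SNP a and b, or 531 and 527 CPM against 683 and 722 CPM. Both SNP libraries were above both controls. The fold change was 1.33 (log2 0.41, SE 0.0870, adjusted p = 0.00149 by edgeR). HAND2 shares 867 of its 3601 exonic bases (24.1%) with the divergent gene HAND2-AS1 on the other strand, and whether the counting used strand is not given in the sources used here. HAND2-AS1 itself was at 566 and 592 CPM in control a and b and at 594 and 595 CPM in SNP a and b, and it did not pass (log2 fold change 0.04, adjusted p = 0.785, edgeR). With the 2 genes counted as 1, the log2 fold change was 0.23 (adjusted p = 0.0444, edgeR), which is smaller by more than 1.5 times and still called.

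PHOX2A, a paired-like homeodomain factor that switches on noradrenergic enzyme genes, had the lowest fold change of the 8. It lies at chr11:72239077-72245664 on the minus strand, and the window printed above is between exons of the longest annotated span. Its counts were 1063 and 986 in control a and b and 613 and 772 in SNP a and b, which is 164 and 175 CPM against 77.2 and 100 CPM. The SNP libraries were both lower, and SNP a was the lower of them. The fold change was 0.523 (log2 -0.94, SE 0.119, adjusted p = 9.7e-06, edgeR).

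TFAP2B, an AP-2 factor tied to sympathetic differentiation, lies at chr6:50818723-50847613 on the plus strand. Its counts of 3290 and 2506 in control a and b and 2021 and 1940 in SNP a and b correspond to 507 and 445 CPM against 254 and 252 CPM. The SNP libraries agreed closely with each other and were far below both controls. The fold change was 0.531 (log2 -0.91, SE 0.0953, adjusted p = 1.0e-06, edgeR). Among the other AP-2 genes, TFAP2A, TFAP2C and TFAP2D had at most 3 counts in any library. TFAP2E had 9 to 24 counts and did not pass (log2 fold change 0.73, adjusted p = 0.286).

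GATA3 and GATA2, zinc finger factors with overlapping roles in sympathetic neurons, fell by similar amounts. GATA3 (chr10:8045378-8075203, plus strand) was counted 2919 and 2223 times in control a and b and 2384 and 2462 times in SNP a and b, or 450 and 395 CPM against 300 and 319 CPM. GATA2 (chr3:128479427-128493185, minus strand) was counted 3702 and 3241 times in control and 3253 and 3585 times in SNP libraries, or 571 and 575 CPM against 409 and 465 CPM. For both genes the raw counts of the groups overlap, and the groups separate once the deeper SNP libraries are scaled. The fold change of GATA3 was 0.733 (log2 -0.45, SE 0.0956, adjusted p = 0.00151, edgeR) and that of GATA2 was 0.763 (log2 -0.39, SE 0.0918, adjusted p = 0.00326, edgeR). The TPM ratio of GATA2 to GATA3 was 0.925 and 1.06 in control a and b and 0.995 and 1.06 in SNP a and b, so the balance between them overlapped between the groups. Both calls were lost when the libraries were scaled by the read totals implied by the deposited RPKM (log2 -0.39, adjusted p = 0.0641 for GATA3 and -0.32, adjusted p = 0.136 for GATA2, edgeR), and that of GATA3 was lost without control a (-0.35, adjusted p = 0.0501).

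Of the other GATA genes, GATA4 fell from 67.4 CPM ± 6.38 to 46.1 CPM ± 0.422 (SD, n = 2 each; log2 fold change -0.55, adjusted p = 0.00278, edgeR). It was not called with G minus C offsets, a fit from which a smooth trend on transcript length, GC content and guanine minus cytosine (G minus C) was taken out (-0.20, adjusted p = 0.248). GATA1 and GATA6 were at 0 in every library, and GATA5 had 1 count in all. The divergent antisense gene GATA2-AS1 rose while GATA2 fell: it was counted 84 and 68 times in control a and b and 166 and 165 times in SNP a and b (log2 fold change 0.75, SE 0.191, adjusted p = 0.00580, edgeR). With G minus C offsets GATA2-AS1 stayed higher (0.86, adjusted p = 0.00468, edgeR), while GATA2 was at 0.01 and not called. GATA3-AS1 did not pass (0.35, adjusted p = 0.192). In the GENCODE release 29 annotation neither pair shares exonic bases.

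ISL1, a LIM-homeodomain factor of sympathetic and other neurons, lies at chr5:51383391-51394738 on the plus strand. It had 960 and 878 counts in control a and b and 1261 and 1218 counts in SNP a and b, or 148 and 156 CPM against 159 and 158 CPM. The SNP libraries sat just above the controls, by less than the test could separate (log2 fold change 0.06, SE 0.1, adjusted p = 0.708, edgeR). Its paralog ISL2, with 34 to 41 counts per library, did not pass either (-0.21, adjusted p = 0.667).

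TBX2, a T-box repressor placed in the adrenergic circuit, lies at chr17:61399896-61409466 on the plus strand. It was counted 1146 and 1042 times in control a and b and 1117 and 1368 times in SNP a and b, or 177 and 185 CPM against 141 and 177 CPM. It was the member whose groups overlapped, since SNP b stood at the level of control a and only SNP a was lower. The log2 fold change was -0.19 (SE 0.112, adjusted p = 0.236, edgeR), and it was not called. Without SNP b it was -0.36 (adjusted p = 0.0142) and without SNP a -0.03 (adjusted p = 0.896). In each of these fits the lone SNP library is assumed to vary as the controls do.

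T-box relatives of TBX2 moved in both directions. TBX3, the more abundant paralog, fell from 802 CPM ± 24.5 to 637 CPM ± 3.47 (SD, n = 2 each; log2 fold change -0.33, adjusted p = 0.00645, edgeR). TBX20 fell from 40.8 CPM ± 4.87 to 20.6 CPM ± 4.67 (-0.99, adjusted p = 2.6e-04). With G minus C offsets TBX3 was not called (-0.13, adjusted p = 0.125) and TBX20 was, at -0.53 (adjusted p = 0.0293, edgeR). TBX4, the T-box gene of the hind limb and lung, was counted once in each control library and 19 and 30 times in SNP a and b, and it rose by at least 6.31-fold against a floor of 3 counts per control library (adjusted p = 5.0e-04, edgeR). TBX2-AS1 did not pass (-0.29, adjusted p = 0.373).

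MYCN, the basic helix-loop-helix oncoprotein gene amplified in high-risk tumours, was the lowest of the 8. It lies at chr2:15940564-15947007 on the plus strand and was counted 75 and 55 times in control a and b and 50 and 73 times in SNP a and b, or 11.6 and 9.76 CPM against 6.29 and 9.47 CPM. SNP b was nearly level with control b and only SNP a was clearly lower. The log2 fold change was -0.44 with an SE of 0.263 (adjusted p = 0.232, edgeR), the widest error among the 8, and the estimate ran from -0.76 to -0.18 with a library left out. Its paralog MYC, which stood above MYCN in every library, fell from 59.3 CPM ± 1.57 to 28.9 CPM ± 0.481 (SD, n = 2 each; -1.04, SE 0.135, adjusted p = 1.2e-05, edgeR), and by 0.63 on the log2 scale with G minus C offsets. The TPM of MYC was 4.36 and 5.36 times that of MYCN in control a and b and 4.02 and 2.61 times in SNP a and b. MYCL had 9 to 22 counts and did not pass (0.13, adjusted p = 0.880), and the antisense gene MYCNOS had at most 2 counts in any library.

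Per transcript length, by deposited TPM, the control order was HAND2 (691 TPM ± 5.68), GATA3 (611 ± 48.5), GATA2 (605 ± 11.5), PHOX2A (447 ± 26.8), TFAP2B (364 ± 28.9), ISL1 (248 ± 12.4), TBX2 (141 ± 6.47) and MYCN (19.3 ± 2.04; SD, n = 2 each). GATA3 and GATA2 overlapped and every other pair of neighbours was separate. In the SNP libraries the order was HAND2 (998 TPM ± 72.4), GATA2 (502 ± 61.2), GATA3 (487 ± 37.1), ISL1 (281 ± 8.12), PHOX2A (255 ± 54.7), TFAP2B (210 ± 5.16), TBX2 (135 ± 26.4) and MYCN (15.6 ± 4.91). There GATA2 overlapped GATA3 and ISL1 overlapped PHOX2A. ISL1, which stood under PHOX2A and TFAP2B in control, was level with PHOX2A and above TFAP2B with SNP. The TPM ratio of HAND2 to PHOX2A was 1.61 and 1.49 in control a and b and 4.38 and 3.58 in SNP a and b. That of HAND2 to TFAP2B was 1.79 and 2.02 against 4.58 and 4.90. These ratios do not depend on how the libraries were scaled to each other. The log2 fold changes of HAND2, ISL1, PHOX2A and TFAP2B were 0.41, 0.06, -0.94 and -0.91. With G minus C offsets they were 0.46, 0.13, -0.38 and -0.59. The gaps of HAND2 and ISL1 to PHOX2A and TFAP2B thus kept their direction and were smaller with those offsets. The HAND2 to HAND1 ratio went from 9.04 and 8.58 to 13.2 and 12.5, while HAND1 itself did not pass (log2 fold change -0.13, adjusted p = 0.582, edgeR). With G minus C offsets HAND1 was at 0.40 (adjusted p = 0.0528, edgeR), close to the 0.46 of HAND2, so the gap between these paralogs depended on that setting.

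**Figure D2:**
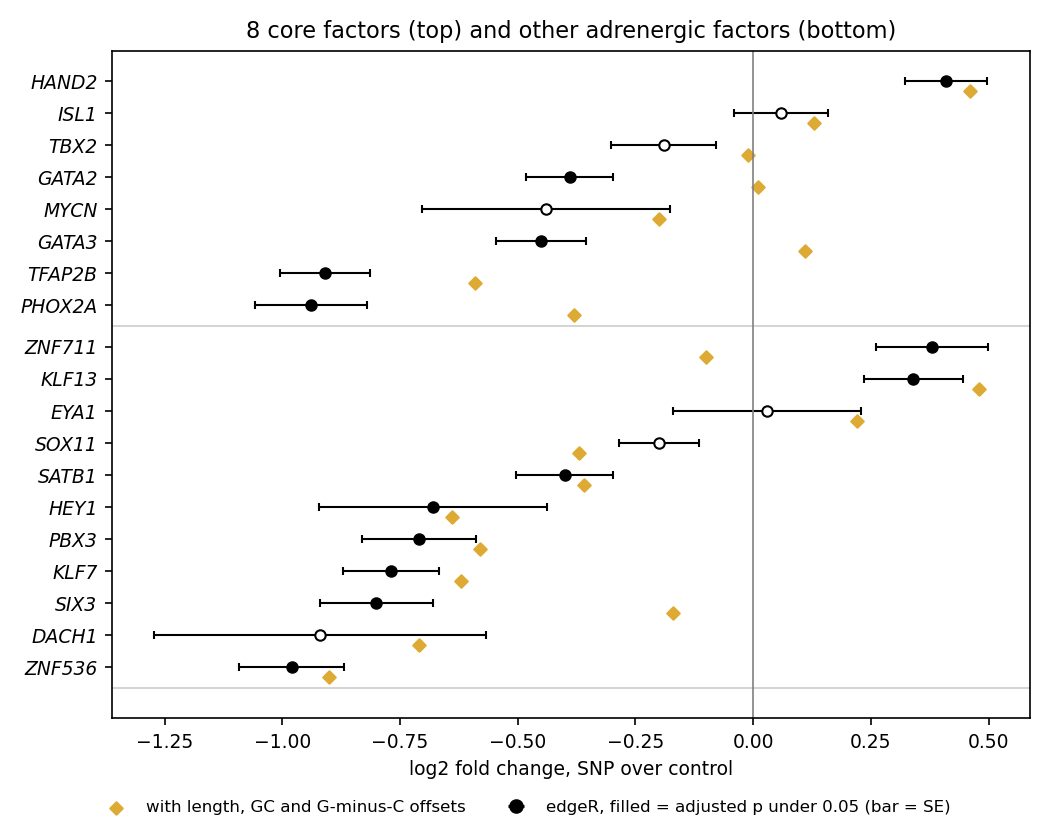
Log2 fold change of SNP over control for the 8 factors (top) and 11 other adrenergic factors (bottom); circles are edgeR estimates with bars of 1 SE, filled where the adjusted p is under 0.05, and diamonds are the estimates with length, GC and G-minus-C offsets. HAND2 lies at 0.41 and PHOX2A and TFAP2B at -0.94 and -0.91, and the diamonds of GATA2 (0.01) and GATA3 (0.11) lie just above 0.

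The factors also differed in the base composition of their transcripts. Guanine minus cytosine (G minus C, in percentage points of all bases) was taken over all annotated transcripts of a gene. A base shared by several transcripts thus counts in each. It was -6.62 for PHOX2A, -8.31 for GATA3, -5.59 for GATA2 and -3.73 for TFAP2B. These place the 4 genes that fell at percentiles 1.53, 0.727, 2.45 and 6.49 of the genes tested, the end at which more cytosine than guanine is found. HAND2 (0.69) and ISL1 (0.97) were near the middle, and TBX2 (-1.76) and MYCN (-1.19) lay between. When a smooth trend of fold change on length, GC content and G minus C was taken out of the fit, PHOX2A (log2 -0.38, adjusted p = 0.00517) and TFAP2B (-0.59, adjusted p = 2.1e-04) stayed lower at less than their former size and HAND2 stayed higher (0.46, adjusted p = 3.3e-04; edgeR). GATA2 (0.01, adjusted p = 0.951) and GATA3 (0.11, adjusted p = 0.289) no longer passed and changed sign. Such an offset takes out any trend with composition, whatever made it, and the part of composition in these results was not tested beyond it.

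**Figure D3:**
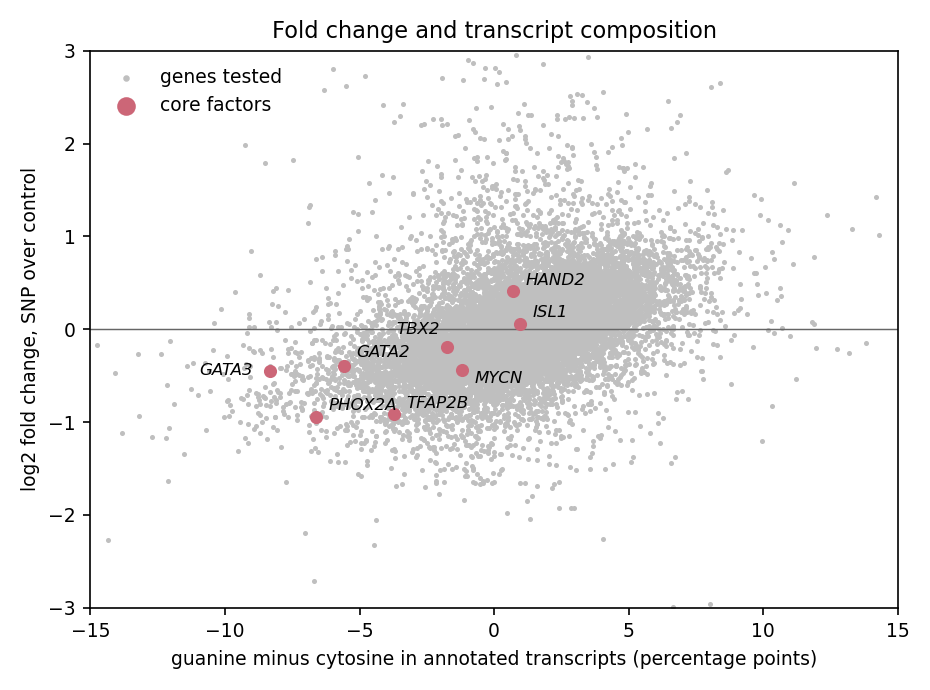
Log2 fold change of SNP over control against G minus C of the annotated transcripts in percentage points, 1 grey point per gene tested and the 8 factors in red; the axes stop at 15 percentage points and a log2 fold change of 3 on each side. PHOX2A, GATA3 and GATA2 sit at -6.62, -8.31 and -5.59 percentage points, at the left of the cloud, and HAND2 and ISL1 near its centre.

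Of 12 other factors of the adrenergic state, 11 passed the filter, 6 fell, 2 rose and 3 did not pass. The share called was 72.7%, against 26.2% over all genes tested. The median log2 fold change was -0.68, against -0.004 over all genes tested. INSM1, a zinc finger factor of neuroendocrine cells, was at 0 in all libraries. The largest fall was in ZNF536, a zinc finger repressor of neuronal differentiation, from 286 CPM ± 20.9 to 145 CPM ± 24.2 (SD, n = 2 each; -0.98, adjusted p = 2.6e-06, edgeR). SIX3 (-0.80), KLF7 (-0.77), PBX3 (-0.71), HEY1 (-0.68) and SATB1 (-0.40) also fell. SATB1, a chromatin organizer, went from 177 CPM ± 10.5 to 134 CPM ± 7.32 (SD, n = 2 each). KLF13 (0.34) and ZNF711 (0.38) rose, and neither was called without control a or without control b. With G minus C offsets ZNF711 (-0.10, adjusted p = 0.506) turned in direction and was not called. SIX3 (-0.17, adjusted p = 0.200) and HEY1 (-0.64, adjusted p = 0.0664) were not called either, while SOX11 (-0.37, adjusted p = 9.0e-04, edgeR) was. SOX11, a neural SOX factor, had a log2 fold change of -0.20 (adjusted p = 0.0898), EYA1 of 0.03 and DACH1 of -0.92 on 22 to 41 counts (adjusted p = 0.0588). The median with G minus C offsets was -0.37, with 5 lower and 1 higher. The count of 8 called was 4 without control a. Their summed level was 2060 and 1918 CPM in control a and b and 1501 and 1574 CPM in SNP a and b.

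Factors of the mesenchymal state were followed as the counterpart. Of 31 listed, 19 passed the filter, 3 rose, none fell and 16 did not pass by edgeR. The share called was 15.8%, under the 26.2% over all genes tested, where 13.6% were called higher. The median log2 fold change was 0.01. At an unadjusted p under 0.05, 5 were lower, while DESeq2 and limma-voom, each after adjustment, called 0 lower. By edgeR after adjustment, 1 was lower with a filter of a mean count of at least 50, and 1 with length and GC offsets. The summed level of the 31 factors was 818 and 813 CPM in control a and b. It was 796 and 826 CPM in SNP a and b, so the groups overlapped. FOSL1, an AP-1 subunit, went from 4 and 6 counts to 23 and 29 (1.98, adjusted p = 0.0101), ZFP36L1, an RNA decay factor, from 12 and 12 counts to 42 and 37 (1.34, adjusted p = 0.0171), and CBFB, the partner of RUNX factors, from 68.9 CPM ± 0.433 to 110 CPM ± 7.0 (SD, n = 2 each; 0.68, adjusted p = 1.4e-04; edgeR). With G minus C offsets these 3 were still higher, CBFB at 0.38, and NOTCH2, named after its values were seen, was lower (-0.30). Of the defining genes, PRRX1 had at most 2 counts in any library and SNAI2 did not pass (-0.60, adjusted p = 0.0958). Without SNP b 5 were called, 1 higher and 4 lower.

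**Figure D4:**
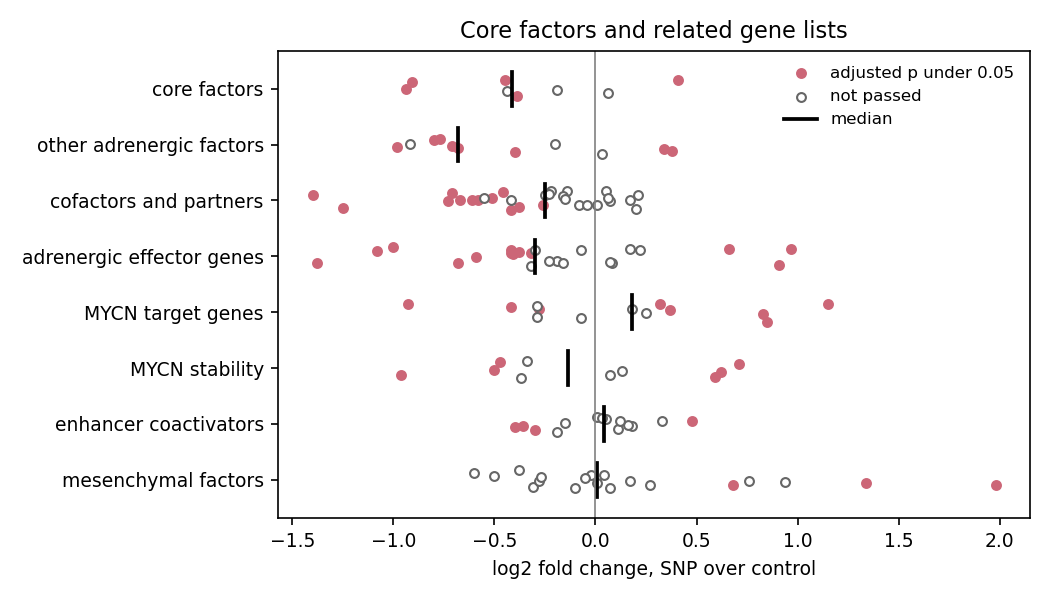
Log2 fold change of SNP over control for each tested gene of 8 lists, 1 point per gene, red where the adjusted p is under 0.05, with a black line at the list's median. The medians of the core factors and the other adrenergic factors are at -0.42 and -0.68, those of the mesenchymal factors and the enhancer coactivators at 0.01 and 0.04.

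The cofactors and partners of the core factors that were called all fell. Of 33 listed, 29 passed the filter, 12 fell, none rose and 17 did not pass by edgeR. The share called was 41.4%, against 26.2% over all genes tested. The median log2 fold change was -0.25 (-0.15 and 9 lower with G minus C offsets). The number higher was 0 also at an unadjusted p under 0.05 and by DESeq2 and limma-voom, which called 11 and 12 lower. LMO3, a LIM-only bridging protein, showed the largest fall, from 29.7 CPM ± 1.13 to 11.2 CPM ± 1.57 (SD, n = 2 each; -1.40, adjusted p = 1.5e-05, edgeR). LDB1, the scaffold that joins LIM and GATA factors, fell by 0.73 on the log2 scale, and by 0.38 with those offsets. ID3, which keeps helix-loop-helix proteins such as the partners of HAND2 from binding DNA, fell from 32.8 CPM ± 1.62 to 13.8 CPM ± 0.469 (-1.25, adjusted p = 2.4e-05). MXD3, a dimer partner of MAX, fell by 0.71. The list thus holds both partners and inhibitors of HAND2-type factors among the genes that fell. MAX, the partner of MYCN, did not pass (0.20, adjusted p = 0.280) and was named after its values were seen.

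Regulators of MYCN protein stability were split. Of 10 genes tested, FBXW7 (0.59), USP7 (0.62) and TRIM32 (0.71) rose and PLK1 (-0.96), SKP2 (-0.50) and HUWE1 (-0.47) fell, on the log2 scale by edgeR. The share of this list called was 60.0%, against 26.2% over all genes tested. FBXW7 is the ubiquitin ligase subunit that marks MYCN for decay, and it went from 87.8 CPM ± 3.36 to 132 CPM ± 3.83 (SD, n = 2 each). PLK1, a mitotic kinase that opposes it, went from 49.5 CPM ± 2.67 to 25.4 CPM ± 1.46. With G minus C offsets FBXW7 was not called (0.23, adjusted p = 0.0800), the other 5 genes named were, and USP7 and HUWE1 were at 0.25 and -0.29 (edgeR). Of 14 coactivators of enhancers, CDK9 rose (0.48), MED12 (-0.40), CCNH (-0.36) and CREBBP (-0.30) fell and 10 did not pass, with a median of 0.04. The share called, 28.6%, was near the 26.2% over all genes tested. With G minus C offsets only CCNH was called (-0.46), CDK9 was at 0.20, MED12 at -0.11 and CREBBP at 0.02, on the other side of 0. Of 13 textbook MYCN target genes 5 rose and 3 fell, and the share called was 61.5%, against the same 26.2%. The nucleolar genes NCL (1.15), DKC1 (0.85), NPM1 (0.83) and FBL (0.37) rose, and SRM (-0.93), ABCC1 (-0.42) and CAD (-0.28) fell. The median of this list was 0.18, and it was -0.20, with 2 higher and 6 lower, under G minus C offsets, so its direction depended on that setting. FBL turned to -0.11, and DKC1 (0.24) and SRM (-0.43) were not called there.

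Among 25 effector genes of the adrenergic state, such as enzymes, transporters and granule proteins, 23 passed the filter, 10 fell and 3 rose. The share called was 56.5%, against 26.2% over all genes tested. DBH, the dopamine beta-hydroxylase gene and a known target of PHOX2A and HAND2, was at 625 and 722 CPM in control a and b and 220 and 298 CPM in SNP a and b (log2 fold change -1.38, adjusted p = 4.8e-08, edgeR). SLC18A1, a vesicular monoamine transporter, NPY, a neuropeptide, and SLC6A2, the noradrenaline transporter, fell by 1.08, 1.00 and 0.68 on the log2 scale. The granule protein genes CHGB (0.97), CHGA (0.91) and SCG2 (0.66) rose. The median of the list was -0.30. With G minus C offsets it was -0.17, 6 genes were lower and 4 higher, and NPY was not called (-0.47, adjusted p = 0.0959, edgeR).

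Because the labels differ on retinoic acid, genes of that pathway were read as well. Of 16 listed, 11 passed the filter, and 18.2% of those were called, against 26.2% over all genes tested. The 2 called genes fell, RARA (-0.63, adjusted p = 0.00403) and RARG (-0.64, adjusted p = 0.0429, both by edgeR). Neither was called with G minus C offsets (-0.23, adjusted p = 0.203 and -0.39, adjusted p = 0.214), where 1 gene of the list was higher, STRA6, named after its values were seen (0.32, adjusted p = 0.00586, against 0.02 without the offsets). CYP26A1, which retinoic acid induces strongly in many cells, was at 0 in all 4 libraries. The summed level of the list was 455 and 441 CPM in control a and b and 379 and 445 CPM in SNP a and b. STRA6 alone was at 231 and 226 CPM in control a and b and at 211 and 252 CPM in SNP a and b. Whether the cells had met retinoic acid was not tested.

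The genes whose pattern over the 4 libraries lay nearest to HAND2 and to PHOX2A were found among 8426 genes whose mean reached 20 CPM, by the Euclidean distance of mean-centred log2 CPM. For HAND2 they were SUPT6H (distance 0.0237), HIP1R (0.0291) and GTF2E1 (0.0388), with log2 fold changes of 0.42, 0.43 and 0.42. For PHOX2A they were CLPTM1 (0.0404), INTS5 (0.0511) and PRRT2 (0.0513), with -0.94, -0.99 and -0.94. With 4 libraries this likeness is a description and rests on depth and scaling that the genes share.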

How the data were processed

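RNA from 4 libraries of SH-SY5Y cells was sequenced (75 base reads, per the labels' protocols). The authors deposited whole-number counts per gene with RPKM and TPM values, per the file headers; the build was GRCh38 per the submitters' processing notes, and the aligner and strand setting are not given in the sources used here. Counts were fitted with edgeR 4.0.16 in R 4.3.3 (TMM, filterByExpr, quasi-likelihood test, SNP against control, no covariate, Benjamini-Hochberg adjustment over 14759 genes, called under 0.05). CPM was computed from the counts and TMM factors (0.989 to 1.01). The deposited TPM was used for levels per length. The deposited RPKM gave the read totals for 1 alternative scaling (48.7 to 62.0 M reads). SE was taken as the log2 fold change over the root of the F statistic. Offsets were lowess trends on GENCODE release 29 transcripts. On simulated data with a log2 change of 1 put into 200 genes, 82% of the 194 tested were recovered and 3.64% of calls were false (14514 genes). Every simulated gene had the same spread, and a far smaller share was changed than was called in the data. These rates may thus not hold for the data, where calls also depended on the offsets.

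The members and gene lists were chosen with earlier results of these data known. Named genes were the members, all tested genes of the lists of other adrenergic factors, paralogs and antisense genes, up to 4 called genes in each direction of other lists, and the 3 nearest genes of HAND2 and PHOX2A. Lists of Schwann, fibroblast and leukocyte markers were read as levels. Some listed genes are not reported here and are left out of the list counts and medians. Alternatives changed filters, scaling, tool (DESeq2 1.42.0, limma 3.58.1), offsets, the replicate block and each library left out.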

Additional observations from a re-analysis of the deposited data

How the results depend on the processing

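Of 121 values of the 8 factors under the alternatives tried, 115 kept their direction and their side of the threshold. Among them PHOX2A (log2 fold change -1.13 to -0.38), TFAP2B (-1.0 to -0.59) and HAND2 (0.23 to 0.49) were called throughout, and ISL1 (0.02 to 0.13) and MYCN (-0.76 to -0.18) were not called in any. HAND2 counted with HAND2-AS1 was chosen after seeing the data. The exceptions were GATA2 (-0.32, adjusted p = 0.136) and GATA3 (-0.39, adjusted p = 0.0641) with read totals implied by RPKM, the same genes with length, GC and G-minus-C offsets (0.01 and 0.11), GATA3 without control a and TBX2 without SNP b (-0.36). Leaving out 1 library at a time gave -0.54 to -0.35 for GATA3, -0.36 to -0.03 for TBX2 and -0.48 to -0.30 for GATA2 (edgeR).

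Of the 8 factors, 3 were called with the RPKM totals and 3 with the G-minus-C offsets, and 4 to 6 with a library left out. Of all genes, 2415 were called by DESeq2 and 2224 at an adjusted p under 0.01, against 3861, and 2447 to 4144 with a library left out. With the RPKM totals 3303 of 14759 genes tested were called, and with the G-minus-C offsets 2762 of 14724. The RPKM totals put 63.1% of calls higher against 51.9% and moved the median of all genes to 0.064. The 8 other adrenergic factors called became 4 to 6 with a library left out. The 3 mesenchymal factors called became 1 with DESeq2 and 2 to 5 with a library left out, and the cofactors called were 9 to 13. The cause of these shifts was not tested. With the replicate block on the letters a and b, 4487 genes and 5 mesenchymal factors were called (3 higher, 2 lower), and no call of the 8 factors changed. Nothing in the labels says that the letters pair libraries, and the difference between a and b in control and that in SNP correlated at 0.090 across 8427 genes. Of the 8 factors MYCN had the fewest counts, 50 to 75. A fit without 1 library leaves a group of 1, which is assumed to vary like the other group.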
